A study of Mus musculus with 2 samples.

Results

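The genes of antigen presentation were followed across the cells of mouse femoral marrow by single-cell RNA-seq. The members were 10 genes matched by symbol, 5 of class I (B2m, H2-K1, H2-D1, Tap1 and Psmb8) and 5 of class II (Cd74, H2-Aa, H2-Ab1, H2-Eb1 and Ciita), out of 28006 features in the files, and each symbol was found once. To profile the marrow stroma, the study sorted GFP+ cells out of the digested femurs of 2 mice, and each mouse gave 1 library (10x Genomics Chromium, 3′ v3 chemistry, with unique molecular identifiers, UMIs). Both mice carried Cxcl12(GFP/+), the Cxcl12-iCreER transgene and R26R(tdTomato/+), received tamoxifen at postnatal day 21 and were sampled at postnatal day 28, so there was no mouse without the GFP knock-in, the transgene or tamoxifen. In these mice the Cxcl12 locus drives GFP, and a bacterial artificial chromosome with Cxcl12 sequences drives the inducible Cre, so both labels follow Cxcl12. The distal growth plates were taken off before digestion, and the labels name both GFP and tdTomato as the sorted marker.

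Class I molecules are carried by nearly all nucleated cells and show peptides from inside the cell to CD8 T cells. B2m is their shared light chain, H2-K1 and H2-D1 encode classical heavy chains, Psmb8 is a catalytic subunit of the immunoproteasome, and Tap1 is one chain of the pump that moves peptides into the endoplasmic reticulum. Class II molecules are built by B cells, dendritic cells and macrophages and show peptides taken up from outside to CD4 T cells. H2-Aa, H2-Ab1 and H2-Eb1 encode class II chains, Cd74 is the invariant chain that escorts them, and Ciita is the transactivator needed for their transcription. Interferon gamma is known to raise both groups, with Irf1 among the factors that act in between.

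Most members lie in the major histocompatibility complex on chromosome 17 (GRCm38): H2-K1 at 33996017-34000347 on the minus strand, Tap1 at 34187553-34197225, Psmb8 at 34197721-34201454, H2-Ab1 at 34257689-34269419, H2-Aa at 34282744-34287823 on the minus strand, H2-Eb1 at 34305867-34316674 and H2-D1 at 35262730-35267499. B2m lies on chromosome 2 at 122147686-122153083 and Ciita on chromosome 16 at 10480059-10528418. The bases before the start of 2 class I and 2 class II genes are shown because the groups differed in which cells held them, and because both kinds of promoter are known to carry a Y box (ATTGG, or CCAAT on the other strand). They come from RefSeq (GRCm38.p6), run 5′ to 3′ on the gene's strand, leave out annotated exons, and have the letters searched for in capitals.
B2m, chr2:122147487-122147685, plus strand: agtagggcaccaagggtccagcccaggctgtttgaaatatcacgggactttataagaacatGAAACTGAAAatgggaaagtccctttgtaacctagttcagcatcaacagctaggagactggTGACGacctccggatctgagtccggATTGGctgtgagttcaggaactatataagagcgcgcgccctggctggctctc
H2-K1, chr17:34000348-34000547, minus strand: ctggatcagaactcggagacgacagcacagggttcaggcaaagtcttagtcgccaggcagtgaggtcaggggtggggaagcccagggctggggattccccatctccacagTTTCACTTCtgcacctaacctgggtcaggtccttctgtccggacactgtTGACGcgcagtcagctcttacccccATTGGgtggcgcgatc
H2-Aa, chr17:34287824-34288023, minus strand: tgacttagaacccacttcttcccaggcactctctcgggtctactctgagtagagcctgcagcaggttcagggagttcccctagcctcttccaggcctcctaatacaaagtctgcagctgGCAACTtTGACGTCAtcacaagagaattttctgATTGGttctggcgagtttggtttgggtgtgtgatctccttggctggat
H2-Eb1, chr17:34305721-34305866, plus strand: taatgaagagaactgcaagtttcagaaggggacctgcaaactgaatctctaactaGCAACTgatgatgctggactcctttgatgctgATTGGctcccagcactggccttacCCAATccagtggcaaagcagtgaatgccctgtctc

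All 4 windows held ATTGG on one strand or the other, and 33.8% of the 32851 RefSeq promoters did within 250 bases before the start. GCAACT, the core of the X1 box, was in both class II windows and in neither of these class I windows, and also in the window of the class I gene Tap1 (9.01% of all promoters), and TGACG was in the B2m, H2-K1 and H2-Aa windows (17.8%). The interferon-type spacing stood in B2m as a pair of GAAA with 2 bases between (2.98% of all promoters) and in H2-K1 as GAANNGAAA on the other strand (6.31%). Both strands were searched, TGACG and its reverse overlap in H2-Aa, and the last 2 patterns can overlap. The windows of H2-D1, Tap1 and Psmb8 fell in annotated exons and are not printed, and Cd74, H2-Ab1 and Ciita had no entry in the table.

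A barcode was kept as a cell when it showed 1000 or more genes and no more than 15% mitochondrial UMIs, which left 2750 in Mouse 1 and 4582 in Mouse 2, with a median of 12967 and 12190 UMIs. The libraries held 54940400 and 88790688 UMIs and shared 7 cell barcodes, where 1.85 were expected from their sizes. Clusters were drawn without the class I and class II genes and named by marker lists, so that a test of a member between classes was not a test of the genes that made the classes. Other genes that follow the members were still used. Reticular-like cells (Adipoq, Lpl, Hp) were 1254 and 2428 in the 2 mice, preosteoblast-like cells (Alpl, Mmp13, Ibsp) 438 and 866, periosteal-like cells 79 and 240, and endothelial-like cells 152 and 139. The other named cells were of blood lineages, and 2 clusters stayed unnamed. Levels are UMIs scaled to the UMI total of the class (CPM), 1 value per mouse.

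**Figure D1:**
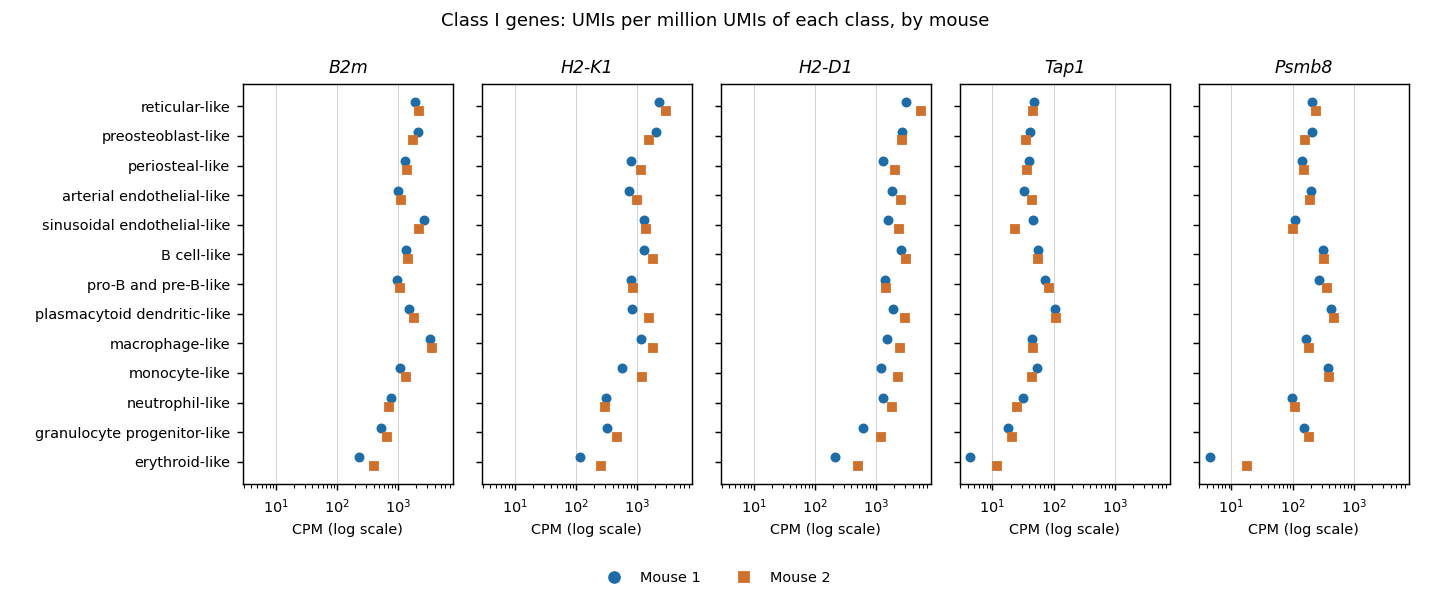
Class I levels in 13 cell classes: each panel is 1 gene, the x axis is CPM on a log scale, and the circle and square are Mouse 1 and Mouse 2. Reticular-like cells had the highest H2-K1 and H2-D1 in both mice, and erythroid-like cells the lowest of all 5 genes.

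Class I was read in every class and was highest in reticular-like cells among the classes of 20 or more cells in each mouse. The 5 class I genes summed to 7658 CPM in Mouse 1 (exact 95% Poisson interval 7616 to 7700) and 11005 CPM in Mouse 2 (10968 to 11043). Their mean was 9332 ± 2367 (SD, n = 2). These intervals cover counting error only. Preosteoblast-like cells stood at 7117 and 6235 CPM, macrophage-like cells at 6310 and 8116, and B cell-like cells at 5554 and 6789. These neighbours overlapped between mice, so their order is not resolved. Endothelial-like cells gave 4266 and 5209 CPM, periosteal-like cells 3589 and 4821, monocyte-like cells 3293 and 5317, and pro-B and pre-B-like cells 3504 and 3863. The lowest were neutrophil-like cells at 2533 and 2987 CPM, granulocyte progenitors at 1644 and 2551, and the erythroid-like class at 575 and 1199. Among reticular-like cells, 1 and 2 had no class I UMI.

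The first question was whether reticular-like and preosteoblast-like cells, the main stromal classes, differed. H2-D1 stood at 3160 and 5506 CPM in the former and at 2706 and 2690 CPM in the latter. The groups did not overlap, but the gap was small in Mouse 1 and wide in Mouse 2. The fitted log2 fold change was 0.72 ± 0.40 (SE, edgeR quasi-likelihood test, adjusted p = 0.27). H2-K1 was at 2308 and 3030 CPM against 2068 and 1571 CPM, which also did not overlap, with a log2 fold change of 0.60 ± 0.35 (adjusted p = 0.30). B2m overlapped, at 1931 and 2180 CPM against 2096 and 1781 CPM (log2 fold change 0.12 ± 0.18, adjusted p = 0.74).

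Tap1 (47.7 and 46.6 CPM against 41.6 and 34.9) and Psmb8 (210 and 242 CPM against 207 and 158) had fitted log2 fold changes of 0.34 ± 0.21 and 0.35 ± 0.29 and did not pass. None of the 10 members was called in this comparison, where 16.3% of all genes tested were (8.51% higher, 7.77% lower), with 3539 of 12719 genes at an unadjusted p under 0.05. DESeq2 called 0 members as well. The mouse number marks 1 animal in both classes. With the mouse as a block H2-D1 passed, at a log2 fold change of 0.65 ± 0.22 (adjusted p = 0.046). Without the filter on low counts H2-D1, H2-K1 and H2-Eb1 passed.

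Other class I genes were higher in reticular-like cells. Of the 29 genes on the class I list, 7 were higher and 0 lower, with a median log2 fold change of 0.35 beside 0.01 over all genes. They were Tapbp and Tapbpl, which edit the peptide cargo (0.89 ± 0.18 and 1.03 ± 0.21), Erap1, which trims peptides (1.10 ± 0.24), Psme1, a proteasome activator (0.72 ± 0.17), and the class I-like genes Cd1d1 (1.31 ± 0.26), Mr1 (0.70 ± 0.22) and Fcgrt (0.97 ± 0.32). Nlrc5, the transactivator of class I genes, had a log2 fold change of -1.06 ± 0.36 and did not pass (adjusted p = 0.057).

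Of the 20 tested genes on the interferon gamma list, 15 were higher in reticular-like cells and 0 lower, with a median log2 fold change of 0.89. These genes were not kept out of the clustering, so the count is a description. Cxcl10, a chemokine for T cells, was at 54.3 and 104 CPM against 8.74 and 8.44 (log2 fold change 3.25 ± 0.79, adjusted p = 0.0092). Irf8, a transcription factor, was at 12.6 and 11.8 CPM against 2.35 and 2.02 (2.51 ± 0.56, adjusted p = 0.0051). Jak1, a receptor-associated kinase, was the smallest of the called differences (219 and 217 CPM against 176 and 138, 0.51 ± 0.15, adjusted p = 0.027). On the class II list only Cd40, a receptor for help from T cells, was called, and lower, at 0.24 and 0.03 CPM against 0.39 and 1.39. These levels were low, and the gap lay mostly in Mouse 2.

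**Figure D2:**
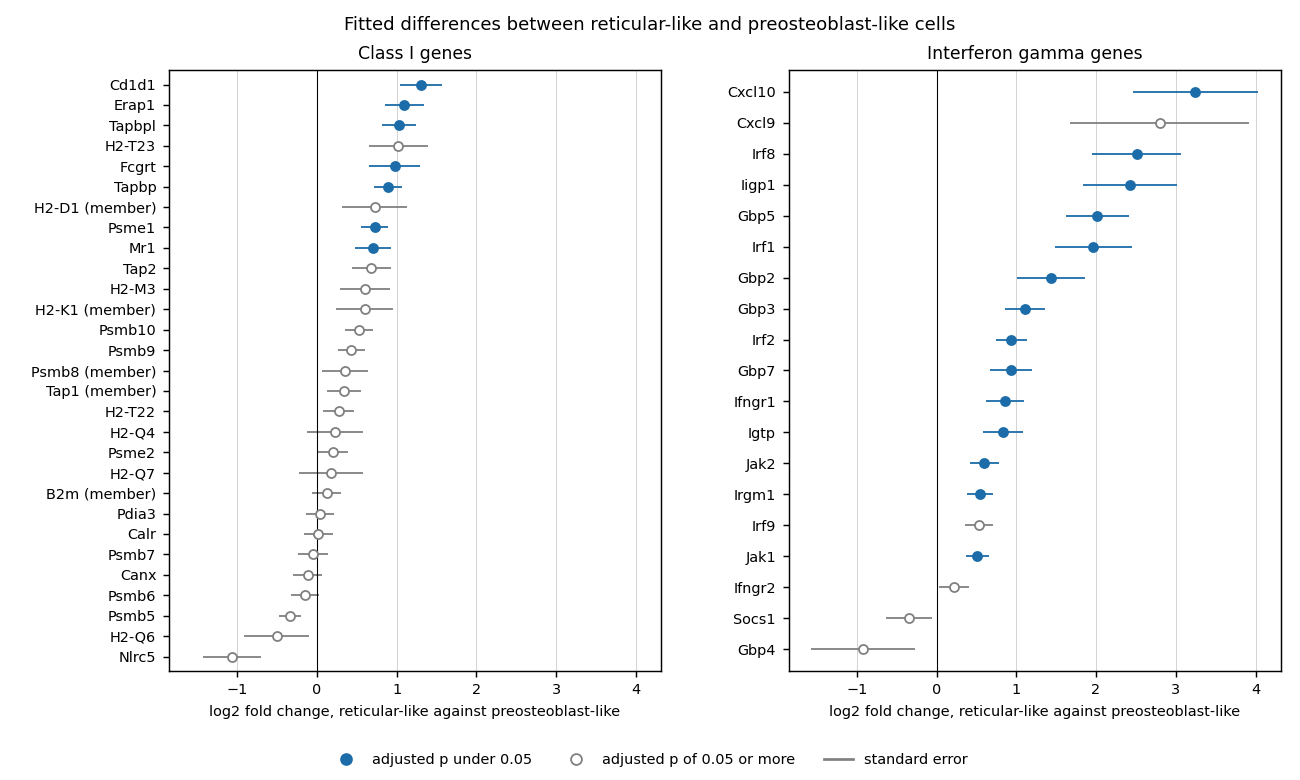
Fitted log2 fold changes of reticular-like against preosteoblast-like cells for the 29 class I genes (left) and the named genes of the interferon gamma list (right), with standard errors, filled where the adjusted p was under 0.05. The 5 class I members are open, while 7 other class I genes are filled, and every filled point of either panel lies to the right of 0.

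Class I also varied inside these classes. The 3 large reticular-like clusters were close together, with summed levels of 7622, 7831 and 7466 CPM in Mouse 1 and 11337, 10181 and 11095 CPM in Mouse 2. A small cluster with Cxcl9 as its first leading gene (43 and 45 cells) was above them, at 11065 and 13757 CPM. Its Cxcl9 was at 1539 CPM in Mouse 1. In Mouse 2 it was at 347 CPM, where another reticular-like cluster had 380 CPM. The small cluster was also shallow, with a median of 4050 and 3481 UMIs per cell, and the part of depth in its class I level was not tested. Few of its interferon gamma genes were above those of the other reticular-like clusters. For 1 of 21 both its values were above every value of the other reticular-like clusters in either mouse, and for 8 both were below. Ifng, 1 of the 21, had no UMI in any reticular-like cluster. Within preosteoblast-like cells the Bglap cluster (13 and 62 cells, with the genes of mature osteoblasts) had 3055 and 3449 CPM against 7408 and 6769 CPM in the large cluster. There H2-K1 was at 453 and 637 CPM and Psmb8 at 29.3 and 24.8 CPM. Clusters are compared without a test, since the same cells defined them.

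Periosteal-like cells had lower class I than reticular-like cells. B2m was at 1307 and 1390 CPM, H2-K1 at 802 and 1179 CPM, and H2-D1 at 1301 and 2061 CPM, and none of these overlapped the reticular-like values. Their log2 fold changes were -0.63 ± 0.18 (adjusted p = 0.031), -1.45 ± 0.36 (adjusted p = 0.012) and -1.39 ± 0.41 (adjusted p = 0.033). These 3 of 10 members were called, beside 13.7% of all genes (7.15% higher and 6.56% lower). Tap1 and Psmb8 did not pass (-0.33 ± 0.23 and -0.64 ± 0.29). Of the class I list 6 were lower and 0 higher (median -0.33 beside -0.08 over all genes), with Cd1d1, which presents lipids, at 24.6 and 28.8 CPM against 208 and 192 CPM (-2.90 ± 0.30). Of the interferon gamma list 1 was higher and 1 lower, and of the class II list Ifi30, a lysosomal thiol reductase, was higher (64.0 and 89.6 CPM against 8.87 and 5.79).

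The periosteal calls rested on all 4 sums. Without the periosteal-like sum of Mouse 1, or without the reticular-like sum of Mouse 2, 0 members passed, with H2-K1 at -1.19 and -1.22. Without the periosteal-like sum of Mouse 2 only H2-K1 passed, and without the reticular-like sum of Mouse 1 B2m did not (adjusted p = 0.067). Of the calls over all genes 52.1% were higher with TMM scaling and 69.7% with DESeq2.

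Endothelial-like cells as 1 merged class carried less class I and more class II than reticular-like cells. Most of them were of an arterial kind, and the 2 kinds are set apart below. In the merged class B2m was at 1408 and 1359 CPM, H2-K1 at 868 and 1097 CPM, and H2-D1 at 1777 and 2541 CPM. All were below every reticular-like value, with log2 fold changes of -0.73 ± 0.18 (adjusted p = 0.0043), -1.60 ± 0.36 (adjusted p = 0.0018) and -1.17 ± 0.41 (adjusted p = 0.030). Tap1 (35.4 and 40.3 CPM) and Psmb8 (177 and 172 CPM) did not pass. Of the class I list 12 were lower and 0 higher (median -0.60 beside -0.11 over all genes).

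In the other direction, Cd74 was at 23.8 and 22.4 CPM in endothelial-like cells and 4.55 and 4.0 CPM in reticular-like cells (log2 fold change 2.27 ± 0.85, adjusted p = 0.043). H2-Aa was at 8.09 and 2.55 CPM against 0.85 and 0.60 CPM (2.72 ± 0.85, adjusted p = 0.018), and H2-Ab1 at 16.7 and 8.15 CPM against 1.21 and 1.49 CPM (2.99 ± 0.58, adjusted p = 0.00056). H2-Eb1 overlapped (5.06 and 2.55 CPM against 2.55 and 4.04 CPM, log2 fold change 0.01 ± 0.91). In all 6 members were called beside 40.9% of genes (19.1% higher and 21.7% lower). Of the class II list 5 were higher and 0 lower, among them Cd40 at 14.7 and 14.8 CPM against 0.24 and 0.03 CPM. Of the interferon gamma list 4 were higher and 4 lower, with Gbp4 at 60.7 and 58.1 CPM against 0.79 and 0.96 CPM.

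Leaving out sums bore on these calls. Without the endothelial-like sum of Mouse 1, or the reticular-like sum of Mouse 2, H2-D1, Cd74 and H2-Aa no longer passed, with adjusted p of 0.21, 0.13 and 0.40 in the first case and 0.29, 0.16 and 0.079 in the second. Without the endothelial-like sum of Mouse 2, H2-D1 and Cd74 did not pass (adjusted p = 0.052 and 0.11), and Cd74 did not without the reticular-like sum of Mouse 1 (adjusted p = 0.13). H2-Ab1 passed in all of these. Of all calls 46.8% were higher with TMM scaling, 57.6% with total UMIs and 57.3% with DESeq2, and H2-D1 missed the threshold with either (adjusted p = 0.073 and 0.057).

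The endothelial-like cells were of 2 kinds, arterial-like (124 and 111 cells, Gja4 and Sema3g) and sinusoidal-like (28 and 28 cells, Stab2 and Flt4). B2m was higher in the sinusoidal-like cells, at 2689 and 2187 CPM against 1019 and 1128 CPM (log2 fold change 1.11 ± 0.19, adjusted p = 0.00054). Psmb8 was lower, at 108 and 100.3 CPM against 197 and 192 CPM (-0.97 ± 0.31, adjusted p = 0.041). Tap1, H2-K1 and H2-D1 did not pass. The sinusoidal-like B2m values lay above the reticular-like 1931 and 2180 CPM, narrowly in Mouse 2. Summed class I was 5690 and 6117 CPM in sinusoidal-like cells, below the reticular-like values. Summed class II was 21.7 and 9.33 CPM there, against 9.17 and 10.2 CPM in reticular-like cells, so it was not higher in Mouse 2.

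H2-Ab1 was seen in arterial-like cells only, with 33 and 16 UMIs (21.8 and 10.4 CPM) in 16 and 8 cells. No UMI was found among the sinusoidal-like cells. Against a floor of 3 counts in each library, the arterial-like level was at least 3.35-fold higher in Mouse 1 and at least 1.49-fold higher in Mouse 2 (adjusted p = 0.039). In all 3 of 10 members were called, beside 16.1% of genes (6.03% higher and 10.0% lower). With the mouse as a block H2-Ab1 did not pass (adjusted p = 0.052). Without either sinusoidal-like sum, or without the arterial-like sum of Mouse 1, only B2m passed, and without the arterial-like sum of Mouse 2 Psmb8 did not. The share of calls that were higher was 37.5% with TMM scaling and 59.1% with DESeq2, where Psmb8 missed the threshold (adjusted p = 0.061). Of the class I list 3 were higher and 3 lower, of the class II list 2 and 2, and of the interferon gamma list 4 and 1. Irf8 was at 232 and 177 CPM against 19.8 and 20.2 CPM.

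Of the blood classes, B cell-like cells (Ms4a1, Cd79a) had less B2m (1350 and 1445 CPM) and H2-K1 (1293 and 1815 CPM) than reticular-like cells, with log2 fold changes of -0.81 ± 0.18 (adjusted p = 0.0016) and -1.03 ± 0.35 (adjusted p = 0.023). H2-D1 (2535 and 3148 CPM) did not pass (-0.86 ± 0.41, adjusted p = 0.087), but did with the mouse as a block (-0.82, adjusted p = 0.0047), and Tap1 and Psmb8 did not pass. H2-K1 was lost without the reticular-like sum of Mouse 2 (adjusted p = 0.14) and without the B cell-like sum of Mouse 1 (adjusted p = 0.18). In monocyte-like cells B2m (1070 and 1334 CPM), H2-K1 (568 and 1213 CPM) and H2-D1 (1225 and 2324 CPM) were lower than in reticular-like cells, by log2 fold changes of -0.81 ± 0.18, -1.64 ± 0.36 and -1.34 ± 0.41. Psmb8 went the other way there, at 376 and 402 CPM (0.75 ± 0.29, adjusted p = 0.033). It no longer passed without the reticular-like sum of either mouse (adjusted p = 0.17 and 0.068) or the monocyte-like sum of Mouse 1 (adjusted p = 0.087). H2-D1 did not pass without the reticular-like sum of Mouse 2 or the monocyte-like sum of Mouse 1 (adjusted p = 0.13 and 0.10).

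Neutrophil-like cells had B2m at 768 and 723 CPM and H2-K1 at 313 and 307 CPM, both called lower than in reticular-like cells (-0.46 ± 0.18 and -2.10 ± 0.37). The CPM gap of B2m was wider than the fitted one, and total UMIs in place of TMM scaling moved the median of all genes by -0.98 on the log2 scale in this comparison. With total UMIs all 5 class I members passed as lower, among them Tap1 at -0.74 in place of 0.27, while with DESeq2 B2m did not pass (-0.11, adjusted p = 0.64). B2m also missed without either neutrophil-like sum (adjusted p = 0.053 and 0.081) or the reticular-like sum of Mouse 2 (adjusted p = 0.20). Erythroid-like cells were lower for all 5 class I genes under each alternative run, with log2 fold changes from -1.79 ± 0.25 for Tap1 to -3.60 ± 0.34 for Psmb8. Psmb8 was at 4.51 and 18.0 CPM there.

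The 2 mice stood apart in H2-D1. In reticular-like cells the level of Mouse 2 was 0.80 higher on the log2 scale than that of Mouse 1, above 99.6% of the 5897 genes compared. In granulocyte progenitor-like cells the same difference was 0.95 (99.5% of genes), in erythroid-like cells 1.24 (99.1%) and in monocyte-like cells 0.92 (96.9%). In preosteoblast-like cells it was -0.01, and in pro-B and pre-B-like cells 0.07. Stromal RNA moved with it in some classes: the preosteoblast list was at 290 CPM in Mouse 1 and 2356 CPM in Mouse 2 among monocyte-like cells, and at 73.1 and 674 CPM among erythroid-like cells. The eGFP transcript was at 244 and 2903 CPM in monocyte-like cells. Free RNA, bounded by the lowest marker list of other classes, could give at most 62.0 and 1383 CPM of class I in monocyte-like cells. The part of stromal RNA in these differences was not tested. With 1 library per mouse this difference has no replicate, and the MHC haplotype of each mouse is not given in the sources used here, and whether alleles that differ from the reference moved the counts of H2-D1, H2-K1 or H2-Eb1 was not tested. H2-D1 shares 9.74% of its 60-base stretches with other genes (4.99% in the last 500 bases), mostly class I genes and pseudogenes, and H2-K1 3.97% (0 in the last 500). The effect of shared stretches on the counts was not tested.

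**Figure D3:**
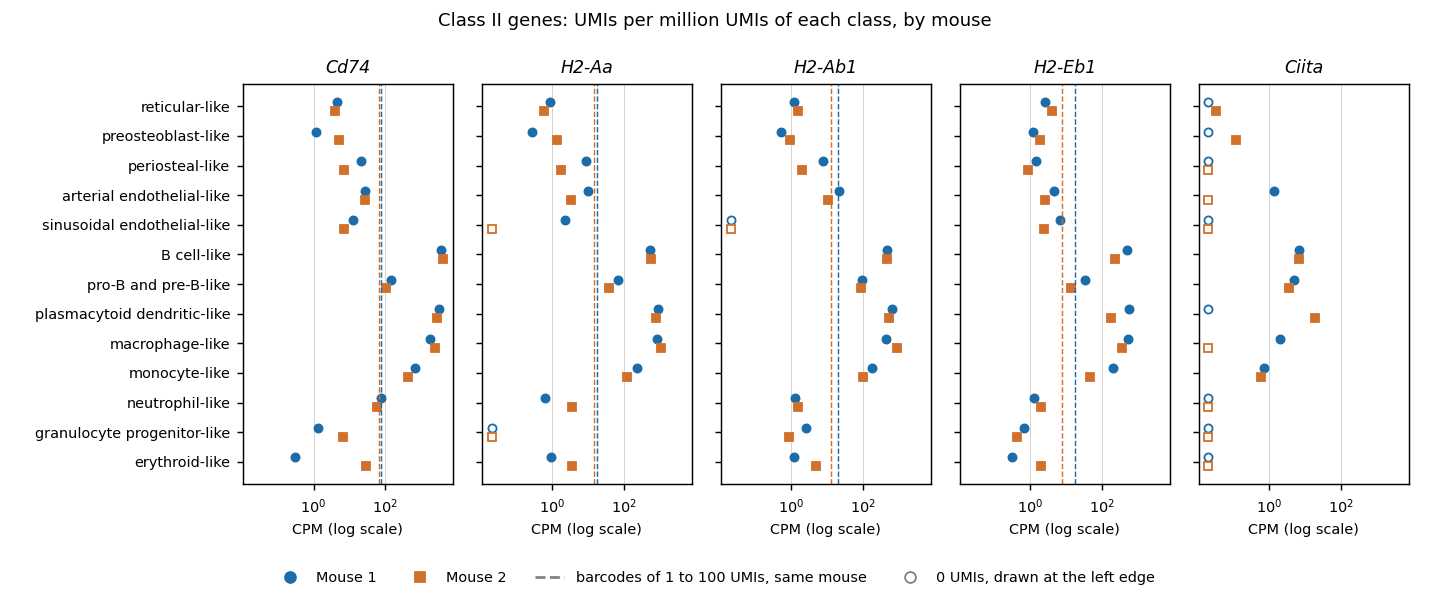
Class II levels in 13 cell classes: each panel is 1 gene, the x axis is CPM on a log scale, circles and squares are Mouse 1 and Mouse 2, open symbols at the left edge mark 0 UMIs, and dashed lines give the level in barcodes of 1 to 100 UMIs. B cell-like, plasmacytoid dendritic-like and macrophage-like cells lie right of the dashed lines for Cd74 and the 3 chains, and stromal classes lie left of them for Cd74.

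Class II followed the blood lineages that present antigen. The 5 genes summed to 5025 and 5394 CPM in B cell-like cells, 5176 and 4289 CPM in plasmacytoid dendritic-like cells (6 and 10 cells) and 3594 and 4816 CPM in macrophage-like cells (21 and 21 cells). Monocyte-like cells stood at 1287 and 694 CPM, and pro-B and pre-B-like cells at 346 and 243 CPM. The stromal classes ran from 3.13 to 38.0 CPM, and reticular-like cells had 9.17 CPM in Mouse 1 (exact Poisson interval 7.77 to 10.8) and 10.2 CPM in Mouse 2 (9.05 to 11.4).

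Cd74, which lies on chromosome 18 at 60803848-60812652 (GRCm38), was at 3551 and 4131 CPM in B cell-like cells, against 4.55 and 4.0 CPM in reticular-like cells (log2 fold change 9.56 ± 1.06, adjusted p = 1.9e-06). H2-Aa was at 509 and 562 CPM (9.28 ± 0.67), H2-Ab1 at 463 and 463 CPM (8.11 ± 0.54) and H2-Eb1 at 496 and 232 CPM (6.47 ± 0.62). Ciita had 7 and 6 UMIs there against 0 and 1 UMI in reticular-like cells and was called higher (adjusted p = 4.7e-05). With B2m and H2-K1 this made 7 of 10 members, beside 51.9% of genes. Of the class II list 17 were higher and 2 lower (median 6.69 beside -0.28 over all genes), with H2-DMb2, a peptide exchange factor, at 93.1 and 113 CPM against 0.06 and 0 CPM. The 2 lower were the lysosomal proteases Ctsl (128 and 80.2 CPM against 829 and 787 CPM) and Lgmn. Of the class I list 2 were higher and 13 lower, and of the interferon gamma list 5 and 12. Higher calls made up 38.5% of all calls with TMM scaling and 50.4% with total UMIs.

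Within the B lineage, class II was higher in the class named B cell-like than in pro-B and pre-B-like cells (Vpreb1, Igll1). The first of these classes had 6 raised markers of B cells and also 6 of pro-B and pre-B cells. Cd74 was at 147 and 103 CPM in pro-B and pre-B-like cells and 3551 and 4131 CPM in B cell-like cells (log2 fold change 4.78 ± 0.86, adjusted p = 0.00071) and H2-Eb1 at 34.2 and 13.8 CPM against 496 and 232 CPM (3.76 ± 0.61, adjusted p = 3.0e-04). H2-Aa (66.6 and 38.0 CPM in the early cells, 3.20 ± 0.52) and H2-Ab1 (93.2 and 84.6 CPM, 2.21 ± 0.42) were also called. Ciita was not, at 4.75 and 3.45 CPM against 6.79 and 6.60 CPM (0.54 ± 0.76). These 4 of 10 members were called beside 21.8% of genes (8.44% higher and 13.3% lower), and no call was lost when any of the 4 sums was left out. With the mouse as a block H2-K1 (0.72, adjusted p = 0.049) and H2-D1 (0.78, adjusted p = 0.016) passed as well.

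The class II list gave 13 higher and 0 lower, and Cd40 was at 53.3 and 66.0 CPM against 0 and 0.86 CPM. On the class I list 3 were higher and 5 lower, with the immunoproteasome subunit Psmb9 lower in B cell-like cells (126 and 111 CPM against 212 and 208 CPM). On the interferon gamma list 4 were higher and 0 lower. In a fit of these 2 classes alone 7 members passed, with H2-K1 and H2-D1 higher and Tap1 lower in B cell-like cells. The higher share of all calls was 38.8% with TMM scaling and 51.9% with total UMIs. At a finer clustering a cluster of 137 and 115 cells with 781 and 714 CPM of class II took the name pro-B and pre-B (Rag1, Vpreb3), and one of 50 and 74 cells with 16099 and 10719 CPM kept the name B cell (Ms4a1). In the class as tested, 59 and 75 cells held 96.5% and 96.2% of the class II UMIs, and the other cells were at 268 and 404 CPM, against 346 and 243 CPM in all pro-B and pre-B-like cells.

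The mice differed in H2-Eb1 among the blood cells. In monocyte-like cells it was at 201 CPM in Mouse 1 and 47.4 CPM in Mouse 2, a log2 difference of -2.08 that was below nearly all of 5205 genes (0.134% were lower). In B cell-like cells the difference was -1.10 (0.938% of genes lower) and in plasmacytoid dendritic-like cells -1.69 (2.16%). The plasmacytoid dendritic-like cells had the neutrophil list at 242 CPM in Mouse 1 and 61564 CPM in Mouse 2, and its part in the difference was not tested. Cd74 differed by -0.68 in monocyte-like, 0.22 in B cell-like and -0.15 in plasmacytoid dendritic-like cells. In monocyte-like cells 1 cell of each mouse held 261 of 565 and 55 of 79 H2-Eb1 UMIs.

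Monocyte-like cells had more class II than neutrophil-like cells. Psmb8 (log2 fold change 0.88 ± 0.30, adjusted p = 0.022), Cd74 (2.04 ± 0.78, adjusted p = 0.041), H2-Aa (5.29 ± 0.74), H2-Ab1 (5.63 ± 0.72) and H2-Eb1 (5.25 ± 0.89) were called, which is 5 of 10 members beside 46.9% of genes (25.9% higher). Cd74 was at 682 and 426 CPM against 75.2 and 59.0 CPM, while H2-Ab1 was at 176 and 100.1 CPM against 1.23 and 1.51 CPM. The class II list gave 9 higher and 2 lower, the class I list 12 and 2, and the interferon gamma list 2 and 5.

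Scaling mattered here more than elsewhere, since total UMIs moved the median of all genes by 1.01. With it 8 members passed, B2m among them at 0.69 in place of -0.35, and 85.4% of all calls were higher in place of 55.3% (41.4% with DESeq2). Psmb8 and Cd74 did not pass with DESeq2 (adjusted p = 0.11 and 0.17), nor without the monocyte-like sum of Mouse 1 (0.052 and 0.14) or the neutrophil-like sum of Mouse 1 (0.082 and 0.11). Cd74 also failed without the neutrophil-like sum of Mouse 2 (adjusted p = 0.17). H2-D1 overlapped (1225 and 2324 CPM against 1322 and 1824 CPM, -0.89 ± 0.41, adjusted p = 0.086), and passed as lower with the mouse as a block (-0.91, adjusted p = 0.0024) and with DESeq2 (-1.20, adjusted p = 0.022).

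Against reticular-like cells, 9 members were called in monocyte-like cells, beside 59.9% of genes (28.8% higher and 31.1% lower). All 5 class II genes were higher, from Ciita (2 and 1 UMIs against 0 and 1, adjusted p = 0.019) to H2-Aa at 227 and 119 CPM (log2 fold change 7.91 ± 0.64). The Ciita call was lost without the reticular-like sum of Mouse 1 and without either monocyte-like sum (adjusted p = 0.061, 0.18 and 0.055). The class II list gave 18 higher and 2 lower, with Ctss, a protease of class II loading, at 365 and 270 CPM against 0.43 and 0.56 CPM, and the class I list gave 5 higher and 16 lower. The interferon gamma list gave 1 higher and 11 lower. In neutrophil-like cells 3 members were called, B2m, H2-K1 and Cd74 (4.97 ± 0.89), beside 61.5% of genes (23.5% higher and 38.0% lower). Their lists gave 1 higher and 19 lower for class I, 10 and 2 for class II, and 4 and 10 for interferon gamma, and higher calls were 38.2% of the total with TMM scaling, 18.2% with total UMIs and 51.6% with DESeq2.

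**Figure D4:**
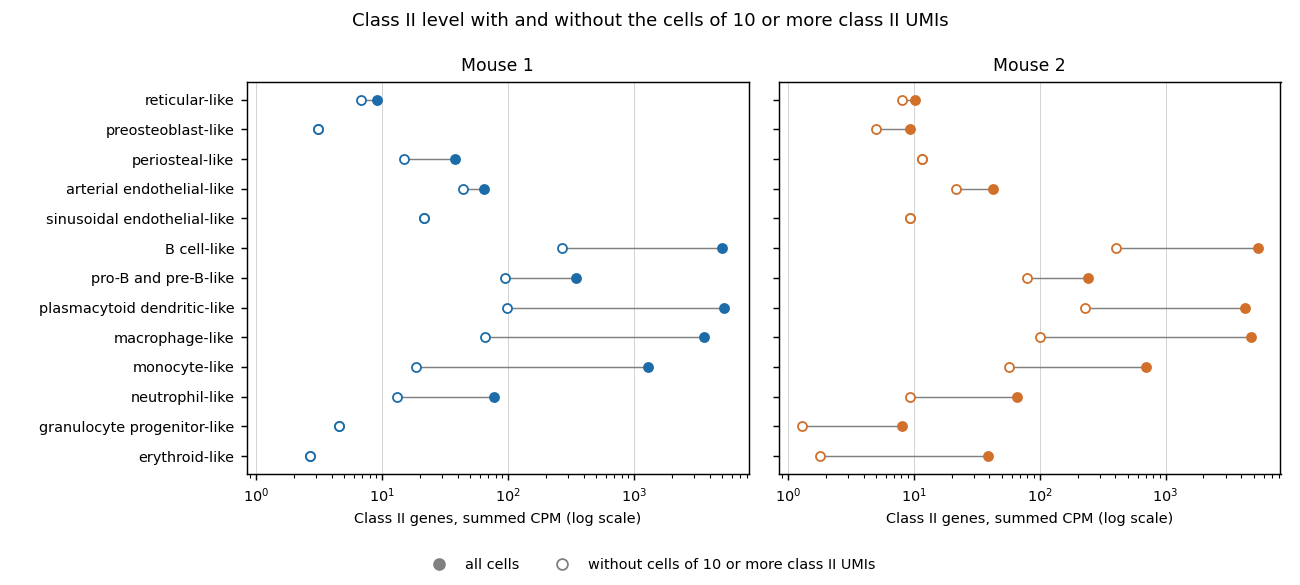
Summed class II level of each class by mouse, with all cells (filled) and without the cells that held 10 or more class II UMIs (open, alone where no cell held that many), on a log scale of CPM. The monocyte-like level falls from 1287 to 18.6 CPM in Mouse 1 and from 694 to 56.8 CPM in Mouse 2, while the reticular-like level moves from 9.17 to 6.77 and from 10.2 to 8.02 CPM.

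Few cells carried the class II of several classes. In monocyte-like cells 8 of 95 cells in Mouse 1 and 9 of 71 in Mouse 2 held 98.6% and 92.8% of the class II UMIs, and 1 cell alone held 1418. Without them the level was 18.6 and 56.8 CPM. Those cells had the conventional dendritic list at 461 and 228 CPM against 50.4 and 52.7 CPM in the other monocyte-like cells, and the B cell list at 723 and 578 CPM against 94.3 and 205 CPM. At least 2 monocyte markers were found in 8 of the 8 and 8 of the 9 cells. The part of other cell types in the class value was not tested.

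In neutrophil-like cells 3 cells of each mouse held 83.5% and 86.3% of the class II UMIs. All 6 carried at least 2 B cell markers, with the B cell list at 4703 and 3570 CPM against 149 and 201 CPM in the other neutrophil-like cells. The level without them was 13.3 and 9.34 CPM. The Cd74 call against reticular-like cells includes them, and their part in it was not tested. In macrophage-like cells 99.6% and 99.1% of the UMIs were in cells with 10 or more, and in B cell-like cells 96.5% and 96.2% (59 of 187 and 75 of 189 cells).

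The erythroid-like class gave 8 called members beside 68.7% of genes (29.5% higher and 39.2% lower), with Cd74 (log2 fold change 2.44 ± 0.84, adjusted p = 0.016), H2-Aa (2.42 ± 0.87, adjusted p = 0.022) and H2-Ab1 (1.91 ± 0.67, adjusted p = 0.018) above reticular-like cells. Cd74 was at 0.30 CPM in Mouse 1 and 28.4 CPM in Mouse 2. In Mouse 2, 2 of 134 cells held 95.4% of the class II UMIs. Both were among the highest doublet scores and carried B cell markers. Without the highest doublet scores Cd74 turned to -2.72 and H2-Aa to -0.10, and H2-Ab1 lost its call (0.55, adjusted p = 0.52). Without the erythroid-like sum of Mouse 2 Cd74 turned to -2.93, and H2-Aa and H2-Ab1 did not pass (adjusted p = 0.58 and 0.69).

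Without the reticular-like sum of Mouse 1, Cd74 and H2-Ab1 missed the threshold (adjusted p = 0.062 and 0.050), and without that of Mouse 2 Cd74 and H2-Aa did (0.080 and 0.082). The class I list gave 4 higher and 24 lower, the class II list 6 and 3, and the interferon gamma list 0 and 12, and 42.9% of all calls were higher with TMM scaling against 25.2% with total UMIs.

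Arterial-like class II was spread more widely. In each mouse 1 cell held 32 of 98 and 33 of 66 UMIs, and 23 of 124 and 15 of 111 cells had any. Without that cell the level was 43.9 and 21.7 CPM, and those 2 cells had no UMI of Ptprc or of the B cell, T and NK and macrophage lists (8, 7 and 9 genes), while the conventional dendritic list had 8 of 9 markers at 0 and the remaining one at 169 and 1512 CPM, against 127 and 224 CPM for the list in the other arterial-like cells. Of the H2-Ab1 UMIs, 22 of 33 and 15 of 16 lay outside that cell. Of the Cd74 UMIs it held 12 of 41 in Mouse 1 and 29 of 41 in Mouse 2, of H2-Aa 3 of 15 and 3 of 5, and of H2-Eb1 6 of 7 and 0 of 4, so the Cd74 level of Mouse 2 lay mostly in 1 cell. In the periosteal-like class of Mouse 1 a single cell, which held Ptprc and 7 of 8 plasmacytoid dendritic markers, carried 61.1% of the UMIs, and without it the level was 15.1 CPM.

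**Figure D5:**
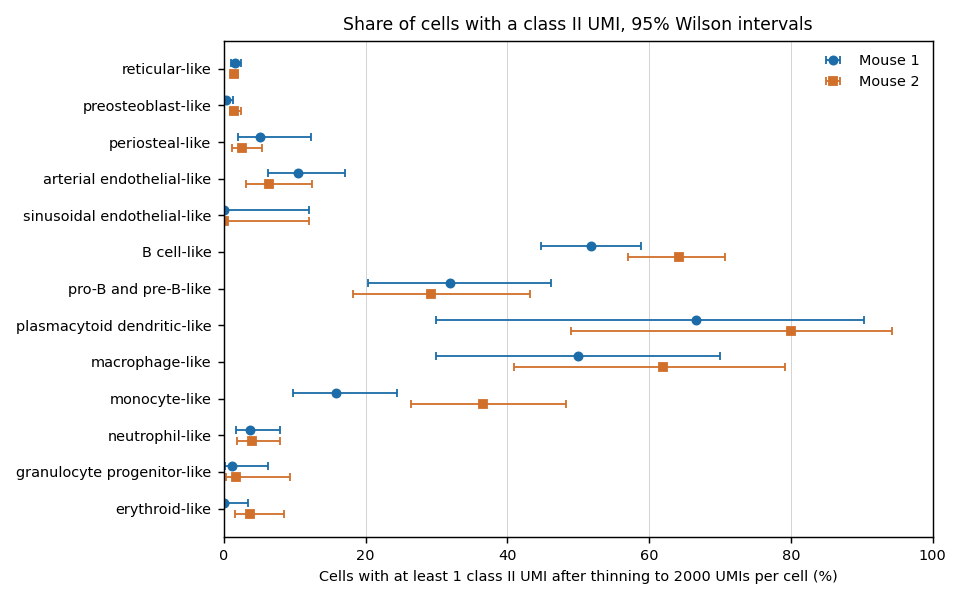
Share of cells with at least 1 class II UMI after each cell was thinned to 2000 UMIs, by class and mouse, with 95% Wilson intervals. B cell-like cells sit at 51.9% and 64.2%, arterial endothelial-like cells at 10.5% and 6.31%, and reticular-like cells at 1.60% and 1.49%.

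After thinning to 2000 UMIs per cell (6 and 21 shallower cells left out), 20 of 1251 reticular-like cells in Mouse 1 and 36 of 2424 in Mouse 2 had a class II UMI. That is 1.60% (95% Wilson interval 1.04 to 2.46) and 1.49% (1.07 to 2.05). Unthinned the shares were 7.42% and 7.74%, at a median of 12380 and 11554 UMIs. Neutrophil-like cells, at medians of 8094 and 8994 UMIs, gave 3.73% and 3.91%. Erythroid-like cells, at medians of 23737 and 25366 UMIs, gave 0 of 111, which allows a share of up to 2.70%, and 3.73%. The neutrophil-like shares include the 3 cells per mouse with B cell markers. The reticular-like share lay below the neutrophil-like one and within what 0 of 111 erythroid-like cells allows. The erythroid-like class of Mouse 2 includes the 2 cells with B cell markers. These shares do not settle whether reticular-like cells stood above classes not known to use class II. Before thinning, 7 of 111 and 6 of 134 erythroid-like cells had a class II UMI. Without the cells of 10 or more class II UMIs, reticular-like cells had 6.77 and 8.02 CPM of class II. Erythroid-like cells then had 2.71 and 1.80 CPM, and neutrophil-like cells 13.3 and 9.34 CPM. Preosteoblast-like cells gave 0.23% and 1.39%.

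Arterial-like cells stood above, at 10.5% (6.23 to 17.1) in Mouse 1 and 6.31% (3.09 to 12.4) in Mouse 2. Sinusoidal-like cells gave 0 of 28 in each mouse, which allows up to 10.7%, so the 2 endothelial kinds were not told apart by share. B cell-like cells reached 51.9% and 64.2%, pro-B and pre-B-like cells 31.9% and 29.2%, and monocyte-like cells 15.8% and 36.6%. PCR copies were merged by UMI, and these intervals and floors cover counting error only.

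Barcodes of 1 to 100 UMIs, which hold too little to be cells, gave the free RNA. There the class II genes summed to 132 and 101 CPM, with Cd74 at 77.5 and 66.1 CPM, H2-Aa at 17.3 and 14.8, H2-Ab1 at 19.6 and 12.8, H2-Eb1 at 17.9 and 7.74, and Ciita at 0. Marker genes of other classes bounded the share of free RNA in reticular-like cells. Of the neutrophil, B cell and erythroid lists the neutrophil list was lowest, at 1.18% and 1.65% of its free RNA level. That allows at most 1.55 and 1.67 CPM of class II. The B cell list stood at 1.77% and 2.43% and the erythroid list at 4.76% and 8.92%. The wider bounds of these lists were not worked out. The measured 9.17 and 10.2 CPM were above the lowest bound, as were the 3.13 and 9.42 CPM of preosteoblast-like cells (at most 1.15 and 1.04 CPM). In Mouse 2, 1 preosteoblast-like cell held 47.2% of the class II UMIs of its class. It was among the highest doublet scores and carried at least 2 B cell markers, and without it the level was 4.98 CPM. In preosteoblast-like cells the erythroid list stood at 10.3% and 1.38%. For class I the lowest bound in reticular-like cells was 60.1 and 99.7 CPM, against 7658 and 11005 CPM.

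H2-Eb1 stood apart in reticular-like cells. Its 42 and 122 UMIs were spread over 38 and 108 cells, and its level of 2.55 and 4.04 CPM exceeded the free RNA bound of 0.21 and 0.13 CPM. The ratio of H2-Eb1 to Cd74 was 0.56 and 1.01 there, against 0.23 and 0.12 in free RNA of the same mice. H2-Aa to Cd74 was 0.19 and 0.15, close to the 0.22 and 0.22 of free RNA. H2-Eb1 was higher in Mouse 2 than in Mouse 1 in reticular-like cells, while in B cell-like and monocyte-like cells it was lower. The 3 reticular-like cells with 10 or more class II UMIs in each mouse held no UMI of Ptprc or of the B cell and T and NK lists, and carried 4 and 3 of the H2-Eb1 UMIs. In them 6 and 7 of 9 macrophage markers and 5 and 5 of 8 plasmacytoid dendritic markers were at 0. The macrophage list was at 2315 and 1162 CPM, against 2013 and 1891 CPM in the other reticular-like cells. The plasmacytoid dendritic list was at 1188 and 1600 CPM against 980 and 933 CPM. The conventional dendritic list was at 154 and 168 CPM against 137 and 136 CPM, and the monocyte list at 139 and 370 CPM against 410 and 374 CPM. Ciita was 0 and 1 UMI among 1254 and 2428 reticular-like cells. A count of 0 in Mouse 1 allows up to 0.18 CPM.

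The study marked part of the reticular cells with tdTomato, and no class I gene was called between marked and unmarked cells. Cells above the 99th percentile of tdTomato in blood cells of their mouse were 503 and 977, and the other reticular-like cells 751 and 1451. B2m was at 1836 and 2119 CPM in marked and 1996 and 2221 CPM in unmarked cells (log2 fold change -0.06 ± 0.10), H2-K1 at 2234 and 3050 CPM against 2359 and 3017 CPM (0.01 ± 0.18), and H2-D1 at 3128 and 5732 CPM against 3182 and 5355 CPM (0.09 ± 0.34). The groups overlapped in every class I gene. Of the 8 members that passed the filter on low counts 0 were called, beside 0.0% of 12194 genes in either direction (edgeR quasi-likelihood test, with 481 genes at an unadjusted p under 0.05 and 11 genes, no member, called by DESeq2).

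Cd74 was at 5.70 and 6.34 CPM in marked and 3.78 and 2.43 CPM in unmarked cells, without overlap. Its log2 fold change was 1.04 ± 0.28 (adjusted p = 0.99), and with the mouse as a block it was 1.08 ± 0.25 (adjusted p = 0.0038), a fit that called 585 genes in all. H2-Ab1, the only other class II gene with a value above 0.5, had 0.75 ± 0.44. H2-Aa and Ciita were too low to test. On the class I, class II and interferon gamma lists 0 of 29, 0 of 11 and 0 of 20 tested genes were called.

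Over the 17 clusters with 20 or more cells in each mouse, the genes most like Cd74 were Pou2f2 (Pearson r 0.94), Cd180 (0.94), Il10ra (0.94), Pld4 (0.93) and Ly86 (0.93). Its own partners H2-Aa, H2-Ab1 and H2-Eb1 had r of 0.96, 0.94 and 0.93, and Ciita 0.75. For H2-K1 the nearest were BC029722, Sgcb, Rcbtb2, Trim35 and Pdia4 (0.92 to 0.93), with H2-D1 at 0.92, B2m at 0.82, Psmb8 at 0.70 and Tap1 at 0.63. Cd74 and H2-K1 had r of -0.12. These are correlations of log2(CPM + 1) averaged over the mice, across clusters that share 2 libraries, and are given as a description.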

How the data were processed

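The authors sequenced 10x v3 libraries and counted UMIs with Cell Ranger (3.0.0 by the matrix headers) on mm10 with eGFP and tdTomato added. The annotation release is not given in the sources used here. The deposited values are raw UMI counts per gene and barcode, and the study's limits on genes and mitochondrial share were kept. Here cells were clustered (scanpy 1.11.5, Leiden resolution 0.5) on 2000 variable genes without the class I and class II lists. Clusters were named when at least 3 markers were 1.5-fold raised. Scrublet marked 1 and 3 cells, too few to have worked, so no doublets were removed, and an alternative left out the 60 and 168 highest scores. UMI counts were summed per mouse and class and tested with edgeR 4.0.16 (quasi-likelihood, TMM, filterByExpr, Benjamini-Hochberg over all genes, called under 0.05), with all classes of at least 20 cells in each mouse in 1 fit. The endothelial kinds and the tdTomato groups were tested in fits of their own. Comparisons with reticular-like cells share those 2 sums. Classes of 1 mouse come from 1 animal. The correlation of same-mouse deviations was 0.51 for tdTomato, 0.29 for reticular-like and preosteoblast-like cells and 0.01 to 0.20 otherwise. P-values measure the spread between 2 mice, estimated over all the classes in a fit and not over the compared classes alone. All 10 members are named. Of the 3 gene lists, up to 4 called genes per comparison are named, the 2 highest and the 2 lowest, and others were named after their values were seen. 1 gene of the interferon gamma list is in the counts but is not reported by name or plotted here. Members, lists and tests were chosen with earlier results of these data known. Alternatives were DESeq2 1.42.0, total UMIs, no filter, the mouse as a block, stricter cell limits, doublets, resolution 1.0, free RNA subtracted, 2 classes alone, and each sum left out, the last chosen after seeing the data. Each fit was tested on simulated data.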

Additional observations from a re-analysis of the deposited data

Results flagged for a closer look

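Values outside the comparisons are given without explanation. Plasmacytoid dendritic-like cells, too few for the fits at 6 and 10 cells, had a mean class II level of 4733 CPM over the 2 mice, above the level of barcodes of 1 to 100 UMIs. Their neutrophil list was at 242 CPM in Mouse 1 and 61564 CPM in Mouse 2, and the part of neutrophil RNA in their levels was not tested. The shallow cluster left unnamed (46 and 118 cells, median 3043 and 2881 UMIs) had a mean class I level of 2669 CPM. The other unnamed cluster (65 and 82 cells, led by Acta2 and Spp1) had a mean class I level of 6447 CPM.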

How the results depend on the processing

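The alternatives gave 732 values for 57 member values, namely the called ones, the class I members between the main stromal classes, and B2m, H2-D1, Psmb8 and Cd74 for tdTomato. Of these 644 kept their direction and side of the threshold, 75 lost and 4 gained a call, and 9 changed direction. Of 155 values of the comparisons 133 stayed within their range. The range was 1.5-fold for a count of calls and the SD of the 2 mice for a level or share. A level with 1 mouse left out always lies within that SD, so those values could not leave the range. Members called moved without the filter on low counts from 0 to 3 between the main stromal classes, from 3 to 8 for periosteal-like cells and from 3 to 5 for neutrophil-like cells. They moved with total UMIs from 5 to 8 for monocyte-like against neutrophil-like, from 3 to 6 for neutrophil-like and from 8 to 5 for erythroid-like cells, and to 7 in the fit of B cell-like and pro-B and pre-B-like cells alone. With the mouse as a block the counts were 1 between the main stromal classes and 1 for tdTomato, where 585 genes were called in place of 0, and beside the members named above with the block it changed no other call. With single class-and-mouse sums left out, the counts ran from 0 to 2 for periosteal-like, 3 to 5 for endothelial-like, 1 to 2 for sinusoidal-like, 3 to 6 for monocyte-like against neutrophil-like and 5 to 8 for erythroid-like cells. There the lone sum is assumed to vary like the others. Leaving out a mouse whole leaves no residual degrees of freedom, so no count was made. Outside these 57, total UMIs turned uncalled values into calls of the other direction for B2m (-0.35 to 0.69) and Tap1 (-0.22 to 0.80) in monocyte-like against neutrophil-like cells and for Tap1 (0.27 to -0.74) in neutrophil-like cells. Among the 57, directions changed without the highest doublet scores for Cd74 (-2.72) and H2-Aa (-0.10) in erythroid-like cells. With single sums left out they changed for Cd74 there (-2.93 to 3.34) and, for tdTomato, for B2m (-0.17 to 0.045), H2-D1 (-0.42 to 0.51) and Psmb8 (-0.023 to 0.20). The class II level of reticular-like cells was 8.19 CPM with free RNA subtracted in place of 9.66 (mean of the mice), and the mean share of cells was 7.58% without thinning in place of 1.54%. For Cd74, H2-Aa and H2-Ab1 in erythroid-like cells the 2 cells described above were left out with the doublet scores, and for the other changes the cause was not tested. Sinusoidal-like cells (28 per mouse) limit any share there.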
